A study of Canis lupus familiaris with 32 samples.

Results

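PDGFD, the gene for platelet-derived growth factor D, was measured by 2 of the 22176 probes on the array, and both are described here over all 32 tumors. The gene was chosen by its levels on these same arrays, set against survival, site and histology, so its values for those are given as a description with no test. The 2 probes were found by the platform annotation, which gives PDGFD for probes 15764 and 15882 and for none of the other 7692 probes with 1 gene symbol. Each of the 32 arrays set 1 primary canine osteosarcoma, a malignant bone tumor, against a reference mixed from the RNA of every tumor of the study. The 16 short survivors (SS) lived less than 6 months and the 16 long survivors (LS) for 6 months or more. All dogs shared the absence of any therapy before the tumor was taken at surgery, and each tumor was from a different dog, so that no group had technical replicates. Ages of the dogs were not used here. In each survival group 8 tumors were labeled with Cy5 and 8 with Cy3, and each group held 7 females.

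A value of 0 on the log2 scale is the level of this pool, and a value of 1 is a doubling. The ratios carried a strong dye effect: 64.4% of all probes differed between tumors labeled with Cy5 and tumors labeled with Cy3 (limma, adjusted p below 0.10). The medians of the 32 arrays lay between -0.03 and 0.02. The ratio gives no absolute level, so whether the tumors held the defining markers of bone at all could not be read from it, and a tissue ratio cannot tell apart fewer cells of a type and less RNA per cell. Tumors 3 and 16 stood apart from the other 30 in PDGFD, and each result that rests on them is also given without them.

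PDGF-D is a secreted growth factor of the PDGF family. It leaves the cell as a latent dimer whose CUB domain has to be cut off by proteases such as urokinase before the growth factor domain can bind its receptor. The active form signals mainly through the receptor PDGFRB, a tyrosine kinase of mesenchymal cells, pericytes and smooth muscle, with neuropilin-1 as a co-receptor.

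The 2 PDGFD probes, made from different expressed sequence tags, gave nearly the same picture of the tumors. After centering within each dye orientation they correlated at 0.90 over the 32 arrays, and at 0.85 without tumors 3 and 16. They had the same sign in 29 of the 32 tumors and differed on average by 0.23, with the largest difference, 1.14, in tumor 3. Among all probes of the array, the one most correlated with probe 15882 was the other PDGFD probe.

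In tumor 16, an SS tumor of the mandible labeled with Cy3, the log2 ratios were 2.38 for probe 15764 and 2.17 for probe 15882. In tumor 3, an SS tumor of the proximal humerus labeled with Cy5, they were 1.07 and 2.21. These were the dogs with the shortest and the next shortest survival of all 32, both female, with tumors of high grade and without chemotherapy after surgery.

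The next levels belonged to long survivors. Tumor 20, a chondroblastic tumor of the distal radius, gave 0.79 and 0.76. Tumor 24, also of the distal radius, gave 0.76 and 0.67, and tumor 18, of the ulna, gave 0.49 and 0.57. The step from tumors 3 and 16 down to these was therefore 0.28 for probe 15764 and 1.41 for probe 15882, and the probes disagreed on how far tumor 3 lay above the rest. At the other end stood tumor 4 (SS) with -0.78 and -1.19 and tumor 26 (LS) with -1.14 and -0.81, both from the distal radius.

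**Figure D1:**
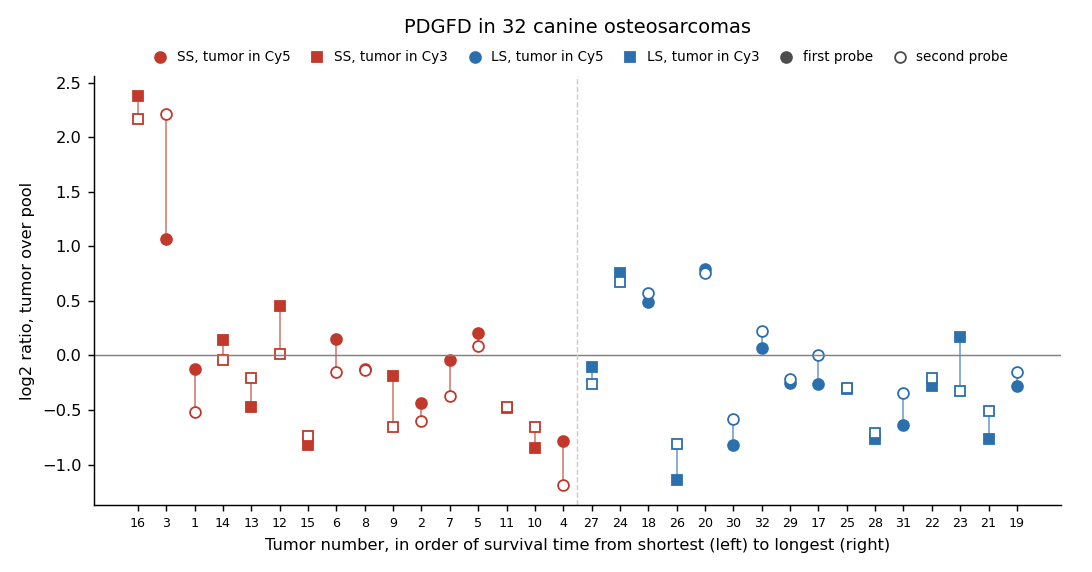
Log2 ratio of PDGFD (tumor over pool, vertical axis) in each of the 32 tumors, ordered from the shortest to the longest survival; filled symbols are probe 15764 and open symbols probe 15882, red is SS, blue is LS, circles are tumors in Cy5, squares tumors in Cy3, and the dashed line divides SS from LS. Tumors 16 and 3, at the far left, reach 2.38 and 2.21, while the other tumors lie between -1.19 and 0.79.

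Tumors 3 and 16, singled out because they led in PDGFD, were the 2 highest of the 32 for 78 of the 22171 probes without a missing value, which is 0.352% of them. The PDGFD probes belong to the 78 by that choice, and nothing is read from their place among them. Of these 78 probes, 50 had a symbol, for 44 genes. The gap to the next tumor was 1.41 for PDGFD probe 15882 and 0.28 for probe 15764. The largest gaps of other named probes were those of CPE, a peptide processing enzyme, with a gap of 0.51, P4HA1, a collagen prolyl hydroxylase subunit, with 0.44, and RANBP3L with 0.39.

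Between the survival groups, PDGFD overlapped almost entirely. For probe 15764 the SS tumors ranged from -0.85 over a median of -0.12 to 2.38, and the LS tumors from -1.14 over -0.27 to 0.79. For probe 15882 the SS tumors ranged from -1.19 over -0.29 to 2.21, and the LS tumors from -0.81 over -0.24 to 0.76. The mean of both probes was -0.04 ± 0.86 (SD, n = 16) in SS and -0.17 ± 0.51 (SD, n = 16) in LS. The larger spread of SS rested on tumors 3 and 16, since without them the SD of SS was 0.36 (n = 14), below that of LS. The pool level was exceeded in 5 of 16 SS and 4 of 16 LS tumors.

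The difference, SS minus LS, was 0.22 (SE 0.24) for probe 15764 and 0.06 (SE 0.26) for probe 15882. For their mean it was 0.14, with a 95% interval from -0.36 to 0.63. Its positive sign rested on tumors 3 and 16: without both of them it was -0.15 (95% interval -0.48 to 0.18), and the SS mean was -0.32 ± 0.36 (SD, n = 14). Both are SS tumors and had the highest PDGFD levels, so leaving them out had to lower the difference. No direction is therefore read from the value without them. Without tumor 16 alone the difference was -0.02, and without tumor 3 alone 0.02. Within the Cy5 arrays the difference was -0.01 and within the Cy3 arrays 0.28. Among the dogs that later received chemotherapy, which hold neither tumor, it was -0.13. Over all probes, limma called 0 between SS and LS, which is 0% of 22176, and 1581 had an unadjusted p below 0.05. With dye orientation as a block it called 94, or 0.424%, 46 higher and 48 lower in SS.

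Over the 32 dogs, PDGFD (mean of both probes, centered within dye orientation) had a Pearson's r of -0.49 and a Spearman's rho of -0.23 with the logarithm of survival time. All recorded times entered as observed, and dogs that died of other causes, whose times the study censored, were not set apart. Tumors 3 and 16 are also the 2 farthest from the median of the logarithm of survival time, and without them r was -0.05 and rho -0.06. Within SS r was -0.88 (rho -0.63), and without tumors 3 and 16 it was -0.45 (rho -0.45, n = 14). Within LS r was -0.32 (rho -0.36, n = 16). The survival groups each gave a negative r, whereas r over the 30 tumors pooled was near 0. Tumors 20, 24 and 18, which had the highest levels after tumors 3 and 16, were among the shorter survivors of LS. In the dogs with the third to the fifth shortest survival, tumors 1, 14 and 13, the mean of the probes was -0.32, 0.05 and -0.34.

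By site, the high levels were single tumors and not a site. The 3 mandibular tumors gave 2.27 in tumor 16, -0.49 in tumor 31 and -0.64 in tumor 21 (mean of both probes). The 4 tumors of the proximal humerus gave 1.64 in tumor 3, 0.15 in tumor 5, -0.13 in tumor 8 and -0.78 in tumor 15. In both sites, all tumors but the 1 exceptional one lay at or below 0.15.

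The distal radius, the most frequent site, held 9 tumors and nearly the whole range of the others, from -0.98 over a median of -0.31 to 0.77. The 4 tumors of the distal femur lay between -0.21 and 0.23. The 4 tumors of the tibia lay between -0.76 and -0.13, so that the sites overlapped by 1 femoral tumor. The pair of rib tumors gave -0.32 and -0.25, and the only tumors of extraskeletal and metatarsal origin gave -0.21 and -0.74.

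The 6 axial or extraskeletal tumors exceeded the 26 limb tumors by 0.24 (SE 0.32, 95% interval -0.41 to 0.89) with dye orientation and survival group in the fit. Without tumor 16 alone this was -0.30, and without tumors 3 and 16 it was -0.25 (95% interval -0.70 to 0.19). The positive direction by site was thus that of 1 mandibular tumor. Leaving out the tumor with the highest PDGFD level had to lower this difference, so no direction is read from the rest. Forelimb minus hindlimb tumors, 17 against 9, gave 0.05 (SE 0.25), and -0.06 without tumor 3.

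By histology, the tumors were described by components that can occur together, osteoblastic, fibroblastic, chondroblastic and telangiectatic. The 16 tumors with a fibroblastic component had a mean of -0.06 ± 0.77 (SD) and the 16 without one -0.15 ± 0.64 (SD). The adjusted difference was 0.10 (SE 0.25), and 0.01 without tumors 3 and 16. Tumor 16 was osteoblastic and fibroblastic and tumor 3 osteoblastic only, so that each of the 2 groups held 1 of them. The 8 tumors with a chondroblastic component were lower by 0.26 on the log2 scale (difference -0.26, SE 0.28, 95% interval -0.84 to 0.32), and by less without tumors 3 and 16 (difference -0.08, SE 0.18). Among these 8 were both tumor 20, at 0.77, and 3 of the lowest tumors, 26, 15 and 10, at -0.97, -0.78 and -0.76. The 4 tumors with a telangiectatic component lay between -0.64 and 0.53, with a difference of 0.06 (SE 0.38) from the others.

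By grade, the 25 tumors of high grade included both tumors 3 and 16, yet their mean was lower, -0.17 ± 0.74 (SD), than that of the 7 tumors of medium or low grade, 0.12 ± 0.49 (SD). The pool level was exceeded in 5 of 25 tumors of high grade and in 4 of 7 of the others. The difference, high minus medium or low grade, was -0.28 (SE 0.30, 95% interval -0.90 to 0.34). Without tumors 3 and 16 it was -0.44 (SE 0.18, 95% interval -0.80 to -0.07), and by probe -0.47 and -0.41, measured in the same tumors. Tumors 3 and 16 had the highest PDGFD levels and were both of high grade, so leaving them out had to lower the high-grade mean. No difference by grade is therefore read from that interval. Without tumor 20 alone the difference was -0.17, and without tumor 28, the single tumor of low grade, -0.44. The groups overlapped, since tumor 28 lay at -0.74.

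**Figure D2:**
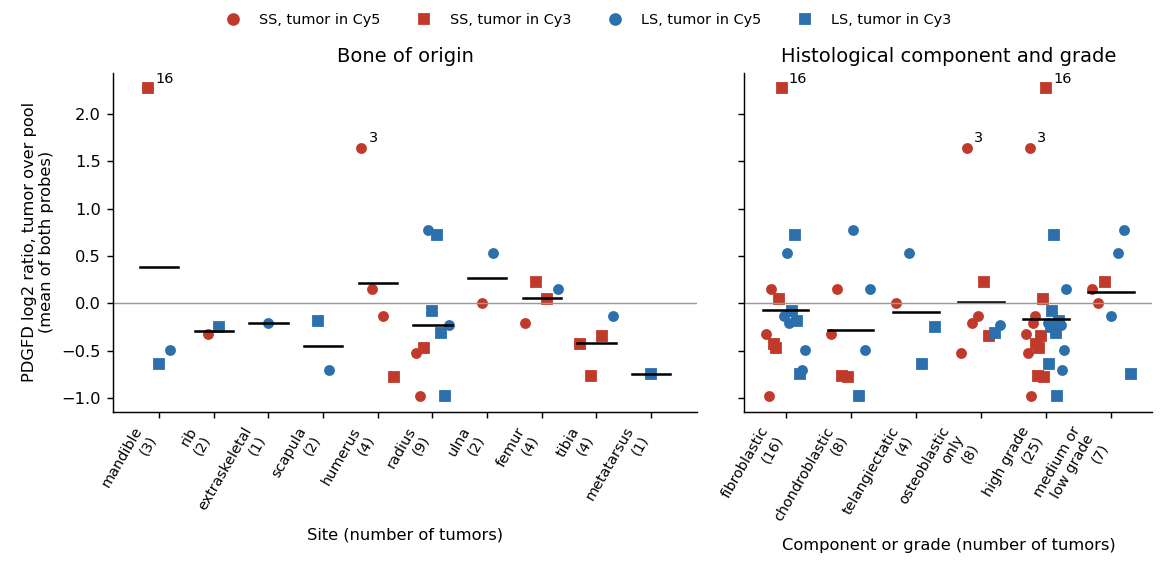
Mean log2 ratio of both PDGFD probes (vertical axis) by bone of origin (left) and by histological component or grade (right), with the number of tumors in brackets; each point is a tumor, black bars are group means, and a tumor with several components appears under each. Tumors 3 and 16 are marked, at 1.64 and 2.27, and the groups overlap around them.

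Dye orientation, sex and later chemotherapy are not among the properties PDGFD was to be described against and were treated as having no part in its choice, which the adjusted p values below assume. For sex and chemotherapy this assumption may not hold, because tumors 3 and 16 were both from females without later chemotherapy. They were tested over all probes with limma, at an adjusted p of 0.10 (Benjamini-Hochberg over 22176 probes). By dye orientation, which moved 64.4% of probes, PDGFD was not called: tumor in Cy5 minus tumor in Cy3 was 0.08 (SE 0.24, adjusted p = 0.787) for probe 15764 and 0.17 (SE 0.26, adjusted p = 0.597) for probe 15882. Tumors 3 and 16 also come from different orientations.

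Between females and males 0% of probes were called, with 1749 at an unadjusted p below 0.05. The 14 females had a mean of 0.10 ± 0.90 (SD) for both PDGFD probes and the 18 males -0.26 ± 0.46 (SD). Females minus males gave 0.42 (SE 0.24, limma adjusted p = 0.682) for probe 15764 and 0.41 (SE 0.26, limma adjusted p = 0.712) for probe 15882. Without tumors 3 and 16, both from females, these were 0.16 and 0.02. Leaving out the highest tumors had to lower the female mean, so nothing is read from the smaller values.

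Between dogs with and without later chemotherapy again 0% of probes were called, with 1717 at an unadjusted p below 0.05. Chemotherapy followed the removal of the tumor, so the comparison is one of tumors before treatment. The 21 tumors of dogs treated later had a mean of -0.22 ± 0.48 (SD) and the 11 others 0.11 ± 0.99 (SD). Treated minus not treated was -0.19 (SE 0.26, limma adjusted p = 0.88) for probe 15764 and -0.44 (SE 0.27, limma adjusted p = 0.707) for probe 15882. Without tumors 3 and 16, both from dogs without chemotherapy, the values were 0.14 and -0.02, so that the sign for probe 15764 turned. Leaving out the highest tumors had to lower the mean of the untreated dogs, so nothing is read from that turn.

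**Figure D3:**
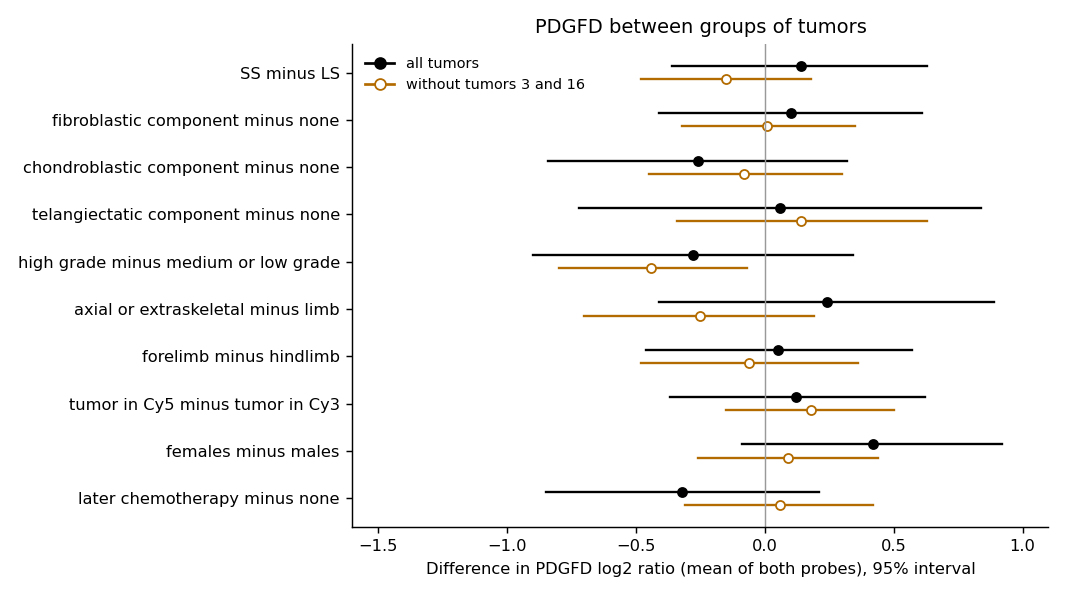
Difference in the PDGFD log2 ratio (mean of both probes, horizontal axis) for each contrast, with 95% intervals from limma; filled black points are all tumors and open points leave out tumors 3 and 16. The SS minus LS point moves from 0.14 to -0.15 when the 2 tumors are left out.

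Of the PDGF family and its receptors, few genes could be followed beside PDGFD. PDGFRL and NRP1 had named probes, and the other PDGF ligands, PDGFRA and PDGFRB were not analysed here. For PDGFRL, a receptor-like protein without a kinase, the 3 probes gave SS minus LS differences of -0.48 (SE 0.26), -0.44 (SE 0.33) and -0.09 (SE 0.16). For NRP1, the co-receptor, the difference was -0.14 (SE 0.08), from means of -0.09 ± 0.26 (SD, n = 16) in SS and 0.05 ± 0.15 (SD, n = 16) in LS. None of the 4 probes was called by limma, with or without the dye block, and their r to PDGFD lay between 0.00 and 0.21. In tumor 16 the PDGFRL probes stood at -0.27, -0.38 and 0.07 and in tumor 3 at -0.42, -0.46 and 0.43, all within the range of the other tumors.

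In all, 13 lists of the PDGF pathway, of related factors and of cell types were set beside PDGFD, with 132 probes for 76 genes. Between SS and LS 0 of the 132 probes were called, with or without the dye block and also without tumors 3 and 16, and 7 (5.3%) had an unadjusted p below 0.05, against 7.13% of all probes. With the block 13 (9.85%) had an unadjusted p below 0.05, against 14.1% of all probes. Their median difference was -0.10, against 0.00 for all probes. Because the dye effect shifts many of these probes, the levels of the lists and of their members in tumors 3 and 16 are given from here to the plot of the lists as log2 ratios minus the mean of the 16 tumors of the same dye orientation, so that 0 is that mean and not the pool.

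On the ligand side, 2 of 13 genes for activation of PDGF-D and proteolysis around the cell could be used. SPARC, a matrix protein that binds PDGF, differed by -0.42 to -0.66 over its 5 probes, and PLG, the precursor of plasmin, by 0.03 (SE 0.12). Of the VEGF relatives, FLT1, a VEGF receptor, gave -0.11 (SE 0.08) and VEGFA 0.05 (SE 0.12).

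Below the receptor, 15 of the 56 listed genes of PDGF receptor signaling could be used, with 21 probes, a median difference of 0.01 and a range from -0.13 to 0.20. The smallest p values belonged to RPS6KB1, a kinase of the mTOR pathway, with 0.20 (SE 0.10), MAPK8, the kinase JNK1, with 0.12 (SE 0.07), the adaptor SHC1 with 0.09 (SE 0.06) and the ubiquitin ligase CBLB with 0.10 (SE 0.07). The other probe of RPS6KB1 gave 0.15 (SE 0.18), and the other probe of SHC1 went the other way, at -0.09 (SE 0.14). The mean of the 21 probes had the highest correlation with PDGFD of the 13 lists, an r of 0.58 over 32 arrays, which was 0.27 without tumors 3 and 16. Without them it was no longer the highest. The VEGF relatives, with 2 probes, then had 0.33 (0.05 over 32 arrays), and leukocyte markers had the r of largest size, -0.43. Tumor 16 ranked first of the 32 for the receptor signaling list, with a centered mean of 0.21, and tumor 3 had rank 5 with 0.09. That place rested on 1 probe of JAK1, a cytokine receptor kinase, which stood at 2.50 in tumor 16, while the other JAK1 probe was at 0.19. Without that probe the mean of the remaining 20 was 0.10 in tumor 16 (rank 3) and 0.07 in tumor 3 (rank 7), the highest of the other tumors was at 0.11, and the r to PDGFD was 0.42.

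Genes that growth factors are known to induce quickly had a negative r to PDGFD. Of 29 listed, 10 could be used, with 12 probes and a median difference of -0.02, and the r of their mean was -0.31 (-0.29 without tumors 3 and 16). Tumor 3 was the lowest of the 32 for this list, at -0.65, and tumor 16 ranked 14th at 0.02. Among its members, JUNB stood at -1.41 and DUSP1 at -1.05 in tumor 3. In tumor 16, KLF4 stood at 0.68 and DUSP1 at -0.14. As deposited, relative to the pool, the list means were -0.61 in tumor 3 and -0.25 in tumor 16.

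The cell type lists were taken to see which tissue moved with PDGFD; their part in its levels was not tested. Smooth muscle and pericyte markers, 12 probes of 7 genes, had an r of -0.11 to PDGFD. Their mean was -0.44 in tumor 3 (rank 30) and -0.13 in tumor 16 (rank 18), within -0.63 to 1.12 in the others. By p for SS minus LS, the leading members were the smooth muscle myosin MYH11 (-0.47, SE 0.19), desmin, DES (-0.61, SE 0.26), smooth muscle actin, ACTA2 (-0.51, SE 0.26 and -0.55, SE 0.28), and MCAM. MCAM was higher in SS with probe 16447 (0.17, SE 0.09) and lower with probes 16204 (-0.44, SE 0.34) and 3296 (-0.35, SE 0.29). The limma adjusted p of these probes lay between 0.624 and 0.832.

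Fibroblast markers, 15 probes of 8 genes, had an r of 0.16, with tumor 16 at 0.69 (rank 5) and tumor 3 at -0.20 (rank 21). The collagen COL3A1 stood at 1.63 and 1.45 in tumor 16 and at -0.02 and -0.32 in tumor 3. Between SS and LS it differed by -0.75 (SE 0.36) and -1.06 (SE 0.54), and COL5A1, another fibrillar collagen, by -0.41 (SE 0.20). The 2 probes of DCN, a small matrix proteoglycan, differed by -0.85 (SE 0.52) and -0.66 (SE 0.46). None of these was called.

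The cartilage list set the 2 tumors apart from each other, and the bone list did so less clearly. Osteoblast and bone matrix markers were at 1.20 in tumor 16 (rank 2) and 0.40 in tumor 3 (rank 11). SPP1, the bone matrix protein osteopontin, was at 2.39 in tumor 16 and 0.12 in tumor 3, ALPL at 1.67 and 1.39 and PHEX at -0.02 and 0.10. The COL1A2 probes were at 1.39, 0.66 and 1.12 in tumor 16 and at 0.26, 0.31 and 0.25 in tumor 3. Relative to the pool, COL1A2 was higher in tumor 3 with probes 10265 (0.18 against -0.28) and 14746 (0.46 against 0.08). With probe 21293 tumor 16 was higher (1.12 against -0.12). Relative to the pool, the bone list was at 0.75 in tumor 16 and -0.01 in tumor 3. Cartilage markers went the other way, with a mean of 2.03 in tumor 3 (rank 2) and -1.33 in tumor 16 (rank 29), or 1.01 and -2.00 relative to the pool. COL2A1, the collagen of cartilage, stood at 0.98 and 3.03 in tumor 3 and at -0.16 and -1.55 in tumor 16, and the leading probe of COMP, a cartilage matrix protein, at 2.08 and -2.21. Tumor 3 is recorded as osteoblastic only. The r of these lists to PDGFD over 32 arrays was 0.28 for bone and -0.03 for cartilage. Osteoclast markers, 3 probes, had an r of 0.21 and stood at 0.47 in tumor 3 and 0.85 in tumor 16, or -0.01 and 0.78 relative to the pool.

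Of the remaining lists, endothelial markers had an r of -0.09, leukocyte markers of -0.30 and skeletal muscle markers of -0.15. Without tumors 3 and 16 these were 0.02, -0.43 and -0.12. Skeletal muscle, which can be cut out with a tumor, stood at -0.25 in tumor 3 (rank 26) and at -0.12 in tumor 16 (rank 16), and at -0.43 and -0.33 relative to the pool. Leukocyte markers stood at -0.57 in tumor 3 (rank 31) and at 0.21 in tumor 16 (rank 7). Relative to the pool, leukocyte markers were at -0.56 and -0.16. Among the 13 lists, tumors 3 and 16 were both in the upper 5 only for PDGF receptor signaling, and not there without the JAK1 probe.

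**Figure D4:**
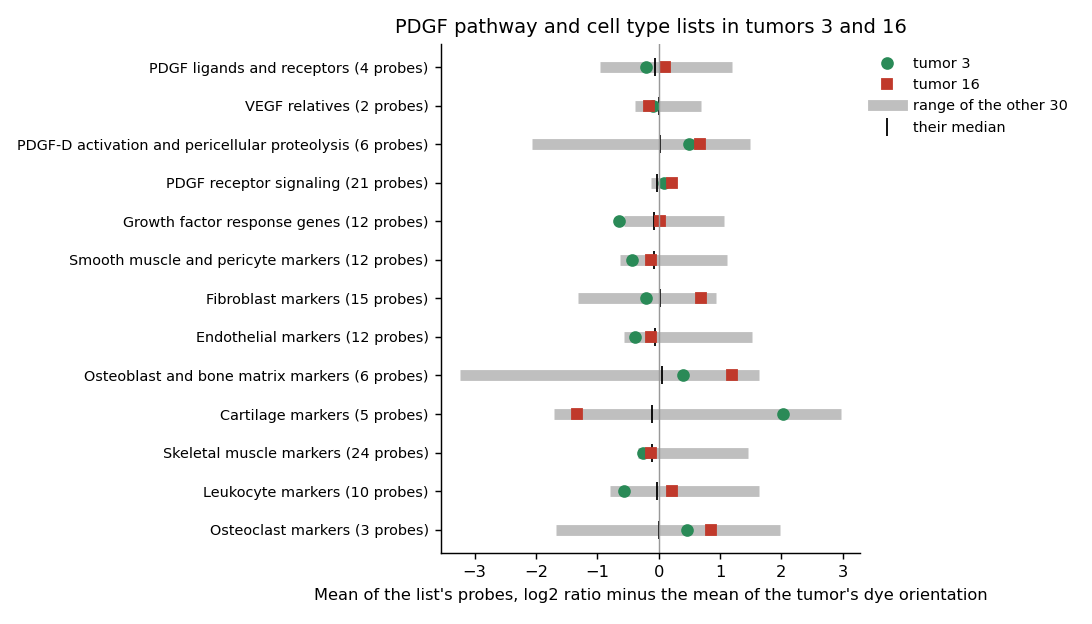
Mean log2 ratio of the probes of each list minus the mean of the tumor's dye orientation (horizontal axis, where 0 is the orientation mean and not the pool) in tumor 3 (circles) and tumor 16 (squares), with the range of the other 30 tumors (gray bars) and their median (tick). The tumors fall on opposite sides for cartilage markers, at 2.03 and -1.33, and tumor 16 lies above the range of the others only for PDGF receptor signaling, at 0.21, which falls to 0.10 and into the range without 1 JAK1 probe.

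The named genes most like PDGFD were ranked by Pearson's r to probe 15882, the PDGFD probe of larger spread, over the 32 arrays after centering within dye orientation; the arrays share 1 pool, and the r values are a description. The 8 highest were DYNLRB1, a dynein light chain, with 0.72, DYNC2H1, the heavy chain of the dynein of cilia, with 0.69, TMEM59 with 0.69, ASNSD1 with 0.68, NKAPD1 with 0.66, RTCB, the tRNA ligase, with 0.64, LAMB2, a basement membrane laminin chain, with 0.64, and CADM1, a cell adhesion molecule, with 0.64. Further probes of these genes gave lower r: 0.64 for DYNLRB1, 0.54 and 0.44 for DYNC2H1, 0.55, 0.44 and 0.42 for RTCB and 0.41 for NKAPD1. The 4 lowest were SMARCD2, a subunit of a chromatin remodeling complex, with -0.67, COG4 with -0.64, DCUN1D2 with -0.62 and RAB29 with -0.61. In the same order, their r was -0.34, -0.35, -0.62 and -0.51 as deposited. Without tumors 3 and 16 it was -0.50, -0.54, -0.27 and -0.56. Of all probes, 0.722% had an r of 0.50 or more to the mean of both PDGFD probes, and the median was -0.02.

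The likeness of the 8 highest rested on tumors 3 and 16 as well. As deposited, CADM1 stood at 1.22 in tumor 3 and at 1.99 in tumor 16, against -1.34 to 1.3 in the others, and LAMB2 at 1.26 and 1.55 against -2.12 to 1.52. Without the 2 tumors the r of the 8 genes fell to between 0.24 and 0.53, and none of them remained among the 8 highest, which then began with FIGNL1 (0.61) and EEF1E1 (0.59). Of the 8, 2 were also among the 8 highest for the other PDGFD probe. LAMB2 kept an r of 0.53 and DYNC2H1 of 0.47 over the 30 tumors.

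DYNC2H1 is also the nearest gene with a probe on one side of PDGFD on the chromosome, and so the 10 nearest measured genes on each side were looked at, a choice made after that value was seen. Their levels are given as deposited. The order of genes was taken from RefSeq for the assembly UU_Cfam_GSD_1.0, and unmeasured genes lie between them. On the side of DYNC2H1, tumor 16 was the highest of the 32 for 1 of the 3 DYNC2H1 probes, for BIRC2, an inhibitor of apoptosis, and for YAP1, the coactivator of the Hippo pathway. Its DYNC2H1 levels were 0.41, 0.66 and 1.19, against upper ends of 0.47, 0.75 and 0.16 in the tumors other than 3 and 16. BIRC2 stood at 2.52, with the next range ending at 1.49, and YAP1 at 2.27, with the next range ending at 0.73.

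BIRC2 and YAP1 were thus above 2 in tumor 16, a level that 0.613% of all probes reached there. PDGFD was above 2 as well, but it was chosen by its levels and is not counted. Genes farther out were mixed. The next gene beyond YAP1, ANKFY1, was at -0.66 in tumor 16, followed by MYBBP1A at 0.77, SMTNL2 at -0.71 and MED31 at 0.78. On the other side of PDGFD, CASP12 and MSANTD4 were at 0.15 and 0.02, KBTBD3 at 0.75 and, 3 genes further, ALKBH8 at 1.37, which was again the highest of the 32. Of the 26 probes of these 20 genes, tumor 16 was the highest for 8, against 3.28% of all probes. The 8 include the DYNC2H1 probe whose likeness to PDGFD led to this region, so that probe is there by choice. After centering within dye orientation it was the highest for 6, among them BIRC2 at 2.52 and YAP1 at 2.39, where the other tumors reached at most 1.49 and 0.85.

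In tumor 3 some of these genes lay lower than in tumor 16 and others higher. There BIRC2 was at 0.01, YAP1 at 0.28, CASP12 at -0.98 and the 3 DYNC2H1 probes at 0.51, 0.08 and 0.06. ANKFY1, at 0.85, and SMTNL2, at 0.23, were above their levels in tumor 16. Tumor 3 was the highest of the 32 for 2 of the 26 probes, 1 of DYNC2H1 and that of ANKFY1, against 4.99% of all probes, and for 1 after centering. Over all 32 arrays, YAP1 had an r of 0.61 to the mean of both PDGFD probes and BIRC2 of 0.56. Without tumors 3 and 16 these were 0.43 and 0.06. Whether the copy number of this region differed was not measured on these arrays.

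**Figure D5:**
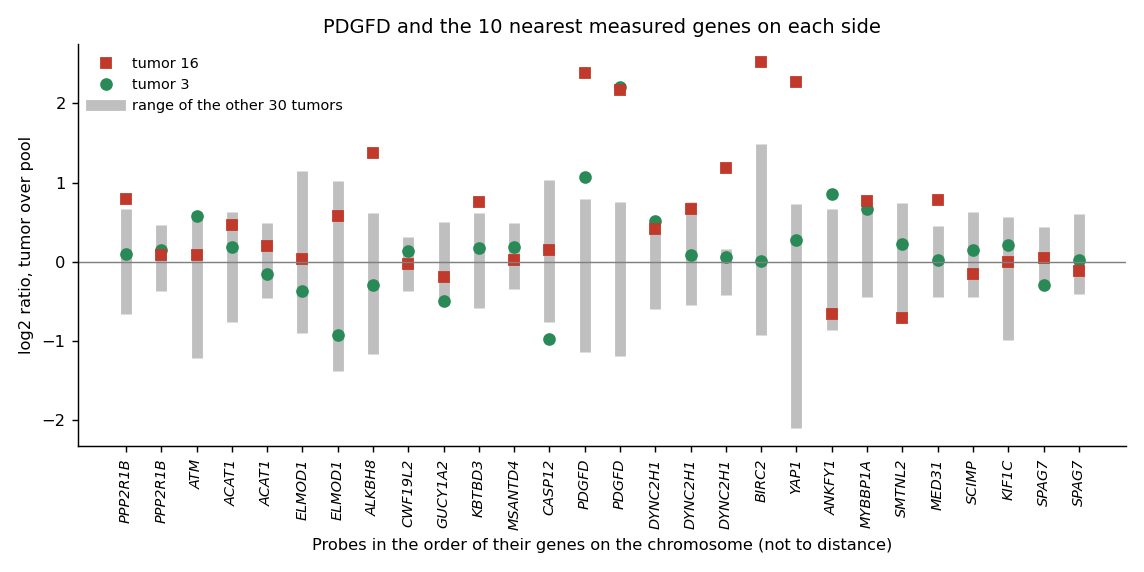
Log2 ratio (vertical axis) of the probes of PDGFD and of the 10 nearest measured genes on each side, in chromosomal order and not to distance, in tumor 16 (squares) and tumor 3 (circles), with the range of the other 30 tumors as gray bars. Tumor 16 lies far above the gray range for PDGFD, BIRC2 (2.52) and YAP1 (2.27), whereas tumor 3 exceeds 1 only for PDGFD, at 2.21.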

How the data were processed

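Per the labels, RNA of each tumor and a pool of all 32 tumors were labeled with Cy5 and Cy3 and hybridized to 1 two-color cDNA array. The deposited values are the log2 ratios of tumor over pool that the authors made by print-tip Lowess normalization, log transformation and switching of the dye-swapped arrays. The base of the logarithm is not given in the sources used here and was read as 2. Arrays of 1 orientation correlated at 0.00256 or more, and probe means of the orientations at -0.658. All 7 probes of the muscle genes ACTA1, TNNT3 and MYLPF were skewed above 0 in both orientations, as the stated switching gives. Survival, sex, site, histology, grade and chemotherapy came from the study's clinical records, matched by tumor number. The table held 22176 probes with 5 missing values, and limma left a missing value out of that probe's fit.

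Limma 3.58.1 in R 4.3.3 (lmFit, eBayes, two-sided, Benjamini-Hochberg over all probes, threshold 0.10) compared SS with LS without a covariate. The other contrasts had dye orientation and survival group as covariates, the contrast of orientations only the latter. The model was tested on simulated data. Significance Analysis of Microarrays, the study's method, was not run. Symbols were read from the platform annotation, with 1 symbol for 7694 probes and none for 14482. Of the named probes, 7340 were matched to RefSeq, with 0 changed symbols.

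PDGFD, the lists and the tests were chosen with earlier results of these data known. Genes named were all measured members of the PDGF list, up to 4 members of each other list by p for SS minus LS, and the 8 highest and 4 lowest by r. CPE, P4HA1, RANBP3L, JAK1, JUNB, DUSP1 and KLF4 and the genes around PDGFD were named after their values were seen. Leaving out tumors 3 and 16 was also chosen after seeing the data. The number of arrays limits the precision.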

Additional observations from a re-analysis of the deposited data

Results flagged for a closer look

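Within the 4 groups of 8 tumors that share survival group and dye orientation, the 6 probes of PDGFD, PDGFRL and NRP1 were searched for a single tumor far from the rest of its group by Dixon's criterion. Of the 24 groups, 6 held such a tumor. Chance gives this in about 1 in 20 groups, but PDGFD was chosen by these values and its 2 probes measure the same tumors, so nothing is read from the 4 groups of PDGFD. Tumor 16 was far above the other SS tumors in Cy3 with both PDGFD probes, at 2.38 for probe 15764 (the next tumor was at 0.45) and at 2.17 for probe 15882 (next 0.01). Tumor 3 was far above the other SS tumors in Cy5 with probe 15882, at 2.21 (next 0.09), and was not with probe 15764. Tumor 24 stood above the other LS tumors in Cy3 with probe 15882, at 0.67 (next -0.21). For PDGFRL, tumor 14 stood above the other SS tumors in Cy3 with probe 2813, at 0.56 (next -0.27), and tumor 22 below the other LS tumors in Cy3 with probe 6264, at -1.09 (next -0.47).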

How the results depend on the processing

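Leaving out 1 tumor at a time moved SS minus LS between -0.02 and 0.20, the fibroblastic difference between -0.09 and 0.21, the chondroblastic between -0.41 and -0.17, the telangiectatic between -0.14 and 0.21, grade between -0.44 and -0.17, axial minus limb between -0.30 and 0.37, forelimb minus hindlimb between -0.06 and 0.12 and the r with survival time between -0.53 and -0.29. Without tumors 3 and 16, a choice made after seeing the data, that r was -0.05, the median r of the 8 most similar genes was 0.40 instead of 0.67, and later chemotherapy minus none for probe 15764 turned from -0.19 to 0.14. SS minus LS was 0.14 with the dye block, 0.11 with arrays scaled to the same spread, 0.12 with array weights and 0.16 with histology and site as covariates. With the sign of the Cy3 arrays turned, as if the authors had not switched them, it was -0.14, and tumor 16 would then be the lowest of the 32. The calls of PDGFD by dye, sex and chemotherapy and those of the lists stayed at none under every alternative run. No paired analysis was possible because SS and LS tumors came from different dogs and shared no number. With 2 probes, 16 tumors a group and intervals of about 1 unit, smaller differences were not detectable.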
